A study of Saccharomyces cerevisiae with 25 samples.

Results

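The genes described here are 36 nuclear genes of the yeast respiratory chain and ATP synthase, chosen by their ORF identifiers from the 6696 ORFs counted in every library. They encode 9 subunits of complex III, 2 forms of cytochrome c, 9 subunits or isoforms of cytochrome c oxidase, 13 subunits of ATP synthase (5 of the F1 head, 8 of the stalks and the membrane part Fo) and 3 NADH dehydrogenases. The rule for the choice names no measured value, but the members were chosen with earlier results of these data known. Counts came from 25 libraries, 13 of ribosome profiling, which sequences the mRNA fragments covered by ribosomes (footprints), and 12 of RNA-seq of rRNA-depleted total RNA. W303, the wild type, was sampled before and 1, 2 and 4 h into treatment with tunicamycin (Tm, 1 µg/mL), an inhibitor of N-glycosylation that causes ER stress, with 2 libraries per assay at 0 h and 1 at each later time. The eS7A-WT and eS7A-4KR strains share the MATa ade2 his3 leu2 trp1 ura3 can1 background, lack the chromosomal genes RPS7A and RPS7B of the ribosomal protein eS7, and carry HA-tagged RPS7A on a plasmid, in eS7A-4KR with the lysines that the ligase Not4 ubiquitinates replaced by arginine. They were harvested at 0 and 4 h of Tm with 2 libraries per group, but untreated eS7A-WT has a single RNA-seq library, replicate 2. All cultures grew in glucose medium, the labels name no second clone of either eS7A strain, and RNA was taken from bulk cultures.

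In the respiratory chain of budding yeast, NADH dehydrogenases made of a single polypeptide pass electrons to ubiquinone, complex III passes them to cytochrome c, and cytochrome c oxidase passes them to oxygen. The resulting proton gradient drives ATP synthase, in which the catalytic F1 head is joined to the membrane part Fo by a rotating and a peripheral stalk. Most subunits are encoded in the nucleus and translated in the cytosol, while a few of the core subunits of complex III, cytochrome c oxidase and Fo are encoded in mitochondrial DNA. Transcription of many of the nuclear genes is low on glucose and rises with respiration, through the Hap2/3/4/5 complex, whose limiting subunit is Hap4.

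Depth was 3423907 to 33858553 counts per footprint library and 28309641 to 49246452 per RNA-seq library. Relative to RPS7A, RPS7B had 17.9% to 26.8% as many RNA-seq reads in W303, against 0.248% to 0.435% in both eS7A strains, as the strain labels imply. The mRNAs of 8 of 8 target genes of the unfolded protein response passed the test as higher in each treated condition. Levels below are TMM-normalized CPM (a library-scaled count) per 1000 codons counted, which allows genes of different length to be set side by side. Changes are log2 values from edgeR's quasi-likelihood test, called at a Benjamini-Hochberg adjusted p below 0.01 over all 5392 genes tested in W303 or 5558 in the eS7A strains. The W303 treated times have no replicates, so their spread comes from the 0 h libraries alone, with 2 residual degrees of freedom. Changes are relative to the median gene: scaling by total counts in place of TMM would move the median of all genes, from 0.05 to 0.97 in W303 footprints at 4 h and from 0.01 to 0.73 in W303 mRNA at 4 h, and would move the median of the 36 genes with it.

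The 4 RNA-seq libraries of eS7A-4KR stood apart in subunits encoded by the mitochondrial genome. COX1 (Q0045, MT:13818-26701 of R64), the catalytic core of cytochrome c oxidase, had levels of 4.5 and 4.27 in eS7A-4KR at 0 h and 3.84 and 3.15 at 4 h. In the 8 libraries of W303 and eS7A-WT its level was 2160 to 4190, and the ranges did not overlap. ATP6 (Q0085, MT:28487-29266), the Fo subunit of the proton channel, had 6 to 11 reads per eS7A-4KR library, a level of 0.633 to 1.49, against 329 to 975 in the other strains. The annotated ORFs inside the COX1 introns, whose reads overlap those of COX1, were likewise between 0 and 3.79 in eS7A-4KR and between 43.8 and 4280 elsewhere. COB (Q0105, MT:36540-43647), the cytochrome b of complex III, was lower but present, at 810, 866, 462 and 1030 against 2580 to 5720. Levels of COX2 (Q0250) were 1190 to 1890 in eS7A-4KR against 1910 to 5300, those of OLI1 (Q0130, the ring subunit of Fo) 6140 to 8700 against 8610 to 13600, and those of COX3 (Q0275) 2110 to 3590 against 1660 to 3770, so that only the last overlapped broadly.

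**Figure D1:**
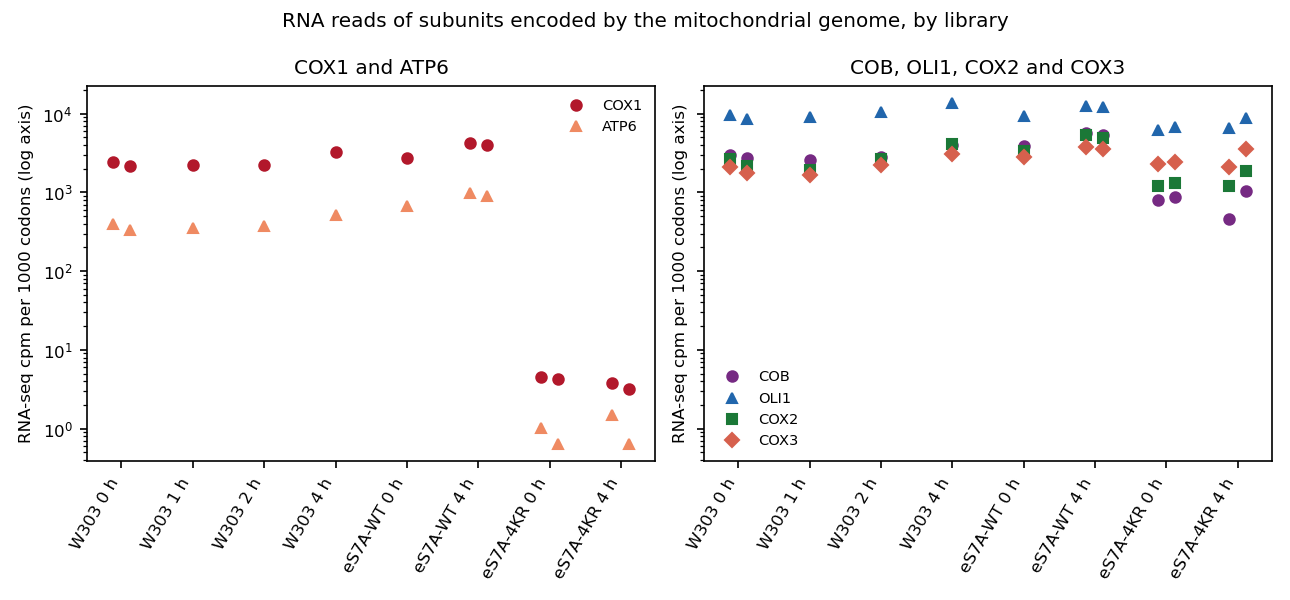
RNA-seq level (CPM per 1000 codons, log axis) of 6 subunits encoded by the mitochondrial genome, each point a library, by strain and hours of Tm. COX1 and ATP6 lie at or below 4.5 in the 4 eS7A-4KR libraries and at or above 329 in the other 8, while COB, OLI1, COX2 and COX3 stay at or above 462 in every library.

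Without a filter on low counts, the difference at 0 h between eS7A-4KR and eS7A-WT was −9.28 for COX1 (standard error 0.25, adjusted p = 4.01e-26 from edgeR) and −2.21 for COB (standard error 0.273, adjusted p = 1.26e-08), while that of COX3 was −0.25 and did not pass (standard error 0.254, adjusted p = 0.435). ATP8 (Q0080) had 0 to 6 reads in every library and is not compared. Footprints on these genes numbered 0 to 16 per library in all strains, so none of the 7 mitochondrially encoded subunits passed the filter for TE or entered the other comparisons. In bulk cultures, fewer cells with a transcript and less of it per cell cannot be told apart, and RNA counts do not show the state of the mitochondrial DNA. The scarcity of these reads and the lysine replacement occur in the same 4 RNA-seq libraries, so every comparison below that involves eS7A-4KR covers both, and their parts cannot be told apart.

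The 36 genes together took 0.302% to 1.08% of footprints and 0.176% to 0.597% of RNA-seq reads. In W303 their share of footprints was 0.302% and 0.322% at 0 h and 1.08% at 4 h. In eS7A-WT it went from 0.371% and 0.353% to 0.907% and 0.916%, and in eS7A-4KR from 0.38% and 0.369% to 0.559% and 0.564%. The RNA-seq share moved the same way, from 0.236% and 0.222% to 0.597% in W303, from 0.269% to 0.487% and 0.507% in eS7A-WT, and from 0.176% and 0.183% to 0.278% and 0.255% in eS7A-4KR. In each strain the treated libraries were all above the untreated ones, and untreated eS7A-4KR had the lowest RNA-seq share of all groups. Such shares are fractions of total counts, a scale on which the median of all genes also rose at 4 h. For footprints that log2 rise was 0.97 (W303), 0.86 (eS7A-WT) and 0.11 (eS7A-4KR). For mRNA it was 0.73, 0.65 and 0.16, strains in the same order. The median of the module exceeded that of all genes by 0.88, 0.47 and 0.52 for footprints and by 0.81, 0.24 and 0.54 for mRNA.

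In W303 more mRNAs of the module were called higher at each later time, as was so over all genes. The share of the module called higher was near that of all genes at 1 and 2 h, and above it at 4 h. At 1 h, 5 of the 35 genes tested were called higher, beside 17.3% of all genes, and 1 lower, beside 16%. At 2 h, 14 were higher (35% of all genes) and 2 lower (32.5%). Under total counts these became 24 higher and 0 lower, beside 2879 and 1154 of all 5392 genes. At 4 h, 30 were higher (35.7% of all genes) and 1, CYC1, lower (35.8%), with a median change of 0.82 against 0.01 over all genes. Under total counts the 4 h split was 34 higher and 0 lower, beside 3295 and 989 of all 5392 genes. Footprints at 4 h gave 28 higher (31.9% of all genes) and 1 lower (31.1%), with a median of 0.92. QCR9 had too few footprints to be tested in W303. Leaving out any of the 4 untreated W303 libraries left 29 to 31 genes called for mRNA at 4 h.

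**Figure D2:**
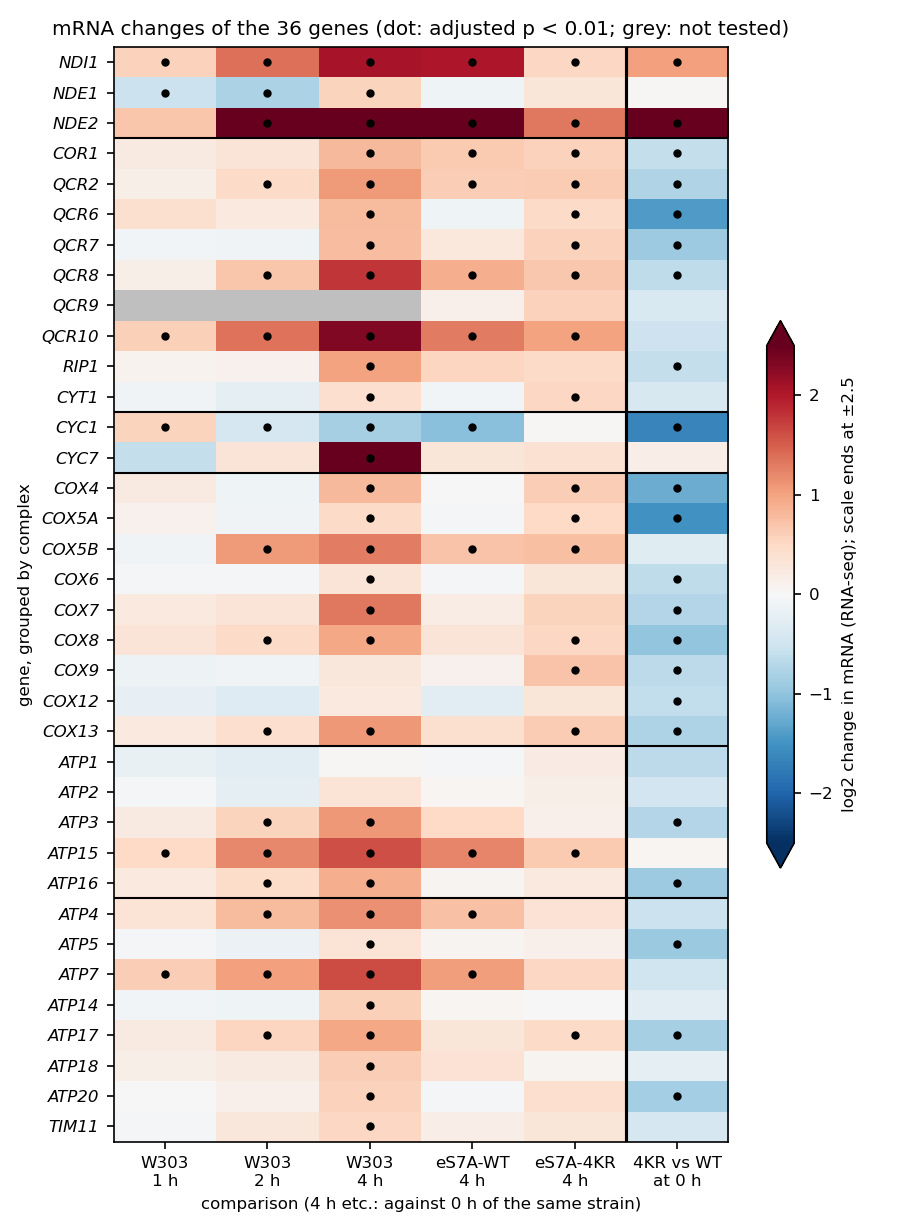
Log2 change in mRNA of the 36 genes (rows, grouped by complex) in 5 comparisons of treated with untreated cells and, at the right, eS7A-4KR against eS7A-WT at 0 h. Dots mark adjusted p below 0.01 and grey marks genes not tested. Nearly all rows are red at 4 h in W303, where 30 of 35 were called higher (35.7% of all genes) and CYC1 lower. Most are blue at the right, where 20 of 36 were called lower in eS7A-4KR (19.4% of all genes) and NDE2 and NDI1 higher.

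The NADH dehydrogenases held the largest changes. NDE2 (YDL085W, chromosome IV:303211-304848), which oxidizes cytosolic NADH at the outer face of the inner membrane, had RNA-seq levels of 1.70 and 0.975 in W303 at 0 h, then 2.16, 12.9 and 39.9 after 1, 2 and 4 h. In eS7A-WT the levels were 0.903 at 0 h and 14.5 and 15.3 at 4 h, and in eS7A-4KR they were 6.36 and 6.31 at 0 h and 17.7 and 14.1 at 4 h. Untreated eS7A-4KR was above the untreated libraries of both other strains, and at 4 h the eS7A strains overlapped. The mRNA of NDE2 rose by 4.89 in W303 at 4 h (standard error 0.285, adjusted p = 1.32e-09), which is 29.7-fold. In eS7A-WT the rise was 4.03, with a standard error of 0.406 and an adjusted p of 1.66e-10, and in eS7A-4KR it was 1.32, with 0.201 and 1.13e-05. These folds start from few reads, 24 and 14 in W303 at 0 h and 19 in eS7A-WT. Footprints of NDE2 numbered 1 and 4 in W303 at 0 h and 133 at 4 h, and 7 and 3 in eS7A-WT at 0 h and 59 and 27 at 4 h.

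NDI1 (YML120C, chromosome XIII:28266-29807), the internal enzyme that oxidizes matrix NADH, rose in every strain. Its RNA-seq level in W303 was 56.2 and 64.6 at 0 h, then 89.6, 157 and 254 after 1, 2 and 4 h. It was 70.9 at 0 h and 283 and 295 at 4 h in eS7A-WT, and 144 and 146 against 209 and 205 in eS7A-4KR. The treated libraries lay above the untreated ones in each strain, and the untreated eS7A-4KR libraries above those of the other strains. The change at 4 h was 2.07 in W303, 2.03 in eS7A-WT (standard error of 0.155, adjusted p = 1e-10) and 0.52 in eS7A-4KR. NDE1 (YMR145C, chromosome XIII:554793-556475), the more abundant external enzyme, moved differently: its level in W303 was 517 and 489 at 0 h, then 346, 290 and 742 after 1, 2 and 4 h. In W303 it was called lower at 1 h (−0.54, standard error 0.126, adjusted p = 0.00468) and 2 h (−0.80, standard error 0.126, adjusted p = 0.000132, but −0.34 and not past the threshold under total counts) and higher at 4 h (0.56, standard error 0.125, adjusted p = 0.00115). In the eS7A strains its mRNA change at 4 h was −0.10 and 0.31 and did not pass.

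In complex III, 8 of 8 tested mRNAs were called higher in W303 at 4 h, by 0.42 to 2.32, beside 35.7% of all genes. The 4 h group has 1 RNA-seq library. QCR10 (YHR001W-A, chromosome VIII:107826-108122), a small accessory subunit, had RNA-seq levels of 92.4 and 100 in W303 at 0 h, then 146, 246 and 483 after 1, 2 and 4 h. Its levels were 175 at 0 h and 450 and 413 at 4 h in eS7A-WT and 119 and 125 against 230 and 257 in eS7A-4KR, with no overlap between treated and untreated libraries in any strain. Its mRNA rose by 1.00 in eS7A-4KR (standard error of 0.164, adjusted p = 3.08e-05), by 1.30 in eS7A-WT and by 2.32 in W303. QCR8 (YJL166W), another small subunit, rose by 1.78 in W303, 0.91 in eS7A-WT and 0.67 in eS7A-4KR. The core proteins COR1 (YBL045C) and QCR2 (YPR191W) rose by 0.82 and 1.06 in W303, by 0.66 and 0.61 in eS7A-WT and by 0.57 and 0.63 in eS7A-4KR. RIP1 (YEL024W), the Rieske iron-sulfur protein, and CYT1 (YOR065W), cytochrome c1, rose by 1.00 and 0.42 in W303, and RIP1 passed in neither eS7A strain.

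Cytochrome c is made from a pair of genes that moved apart. CYC1 (YJR048W, chromosome X:526335-526664), the major form, had RNA-seq levels of 670 and 695 in W303 at 0 h, then 997, 510 and 383 after 1, 2 and 4 h. It rose by 0.55 at 1 h and was lower by 0.42 at 2 h, where total counts give 0.04, and at 4 h its change was −0.83 (standard error 0.108, adjusted p = 2.07e-05), which was −0.11 and did not pass under total counts. In eS7A-WT the level was 1440 at 0 h and 683 and 716 at 4 h, a change of −1.04 (standard error 0.207, adjusted p = 6.51e-05), which was −0.38 and did not pass under total counts, and the footprint change of −0.68 became 0.18. In eS7A-4KR it was 460 and 456 at 0 h and 435 and 491 at 4 h, and these libraries overlapped. CYC7 (YEL039C, chromosome V:79636-79977), the minor form, had levels of 6.73 and 10.9 in W303 at 0 h, then 5.86, 11.0 and 51.8 after 1, 2 and 4 h, from 17 and 28 reads at 0 h to 204 at 4 h. It rose by 2.54 at 4 h (standard error 0.311, adjusted p = 4.39e-06), 5.83-fold. In the eS7A strains CYC7 was at 46.8 to 53.6 before treatment, above every W303 library before 4 h, and at 55.3 to 71.4 after it. Its changes there, 0.31 and 0.39, did not pass.

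In cytochrome c oxidase, 7 of 9 mRNAs were called higher in W303 at 4 h (35.7% of all genes), 1 of 9 in eS7A-WT (28.9%) and 6 of 9 in eS7A-4KR (15%). Its subunit 5 comes as the isoforms COX5A (YNL052W, chromosome XIV:531725-532186), the aerobic form, and COX5B (YIL111W, chromosome IX:155222-155765), known as the hypoxic form. COX5A had RNA-seq levels of 309 and 318 in W303 at 0 h, then 336, 297 and 438 after 1, 2 and 4 h. COX5B had 73.6 and 70.8 at 0 h, then 67.8, 151 and 176 after 1, 2 and 4 h, and was already called higher at 2 h, by 1.06. The 4 h changes were 0.48 (standard error 0.116, adjusted p = 0.00205) for COX5A and 1.28 (standard error 0.144, adjusted p = 3.57e-06) for COX5B. The ratio of COX5A to COX5B reads per codon was 4.20 and 4.49 at 0 h and 2.49 at 4 h in W303, 6.08 and 3.39 to 3.79 in eS7A-WT, and 2.47 to 2.79 and 2.10 to 2.24 in eS7A-4KR. Among the other subunits, COX7 (YMR256C) and COX13 (YGL191W) rose by 1.32 and 1.08 in W303, while COX9 (YDL067C) and COX12 (YLR038C) changed by 0.29 and 0.25 and did not pass.

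**Figure D3:**
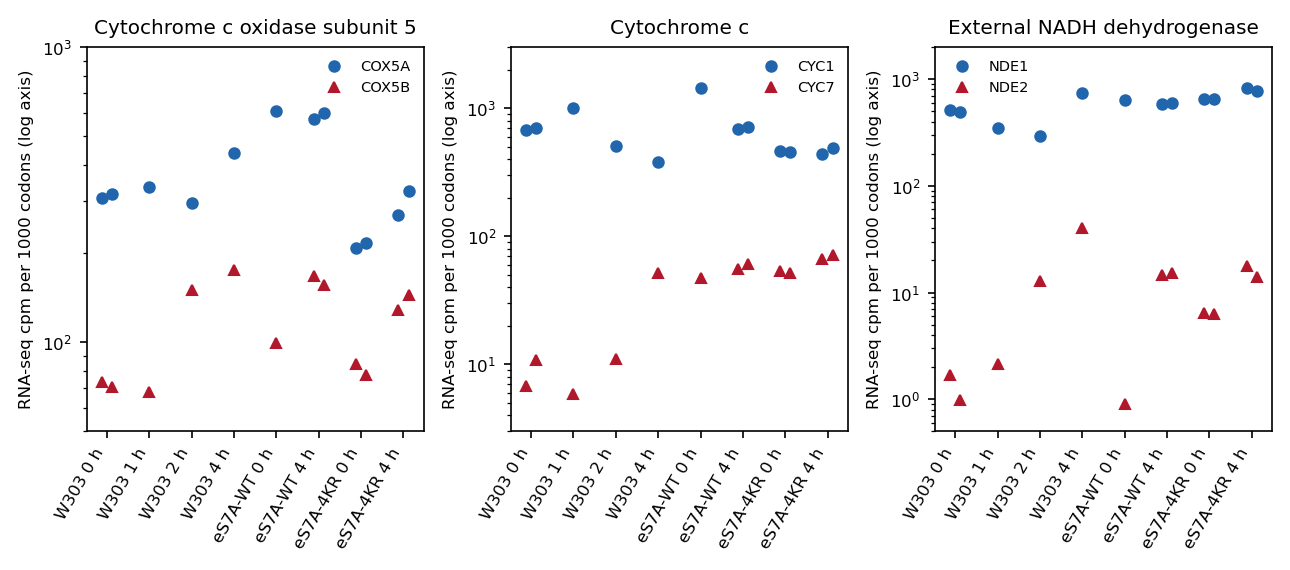
RNA-seq level (CPM per 1000 codons, log axis) of 3 pairs of genes for the same function, each point a library, by strain and hours of Tm. NDE2 goes from 0.975 and 1.70 to 39.9 and CYC7 from 6.73 and 10.9 to 51.8 in W303, untreated eS7A-4KR has 6.31 and 6.36 for NDE2, and the aerobic forms CYC1 and COX5A lie below untreated eS7A-WT in untreated eS7A-4KR.

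ATP synthase subunits separated within the F1 head in W303 at 4 h, where each assay has 1 library. ATP1 (YBL099W) and ATP2 (YJR121W), the alpha and beta subunits that form its catalytic ring, had RNA-seq levels of 846 and 806, and of 1070 and 1100, in W303 at 0 h. At 4 h they were at 841 and 1390, and the mRNA changes of 0.03 and 0.35 did not pass. Under total counts both were called higher, as were 3295 of all 5392 genes. ATP3 (YBR039W), the gamma subunit at the centre of the ring, went from 342 and 356 to 738, and its mRNA rose by 1.08. In eS7A-WT the ratio of ATP1 to ATP3 RNA-seq reads per codon went from 2.34 at 0 h to 1.52 and 1.7 at 4 h. In eS7A-4KR it was 2.45 and 2.49 at 0 h and 2.68 and 2.55 at 4 h, without such a separation. In W303 at 4 h the mRNA of ATP15 (YPL271W, chromosome XVI:30079-30267), the epsilon subunit of the rotor, rose by 1.62 and that of ATP16 (YDL004W), its delta neighbour, by 0.90. ATP7 (YKL016C) and ATP4 (YPL078C) of the peripheral stalk rose by 1.63 and 1.15 in the same comparison. All 8 stalk and Fo genes were called higher in W303 at 4 h, where 35.7% of all genes were. The 2 of 8 called in eS7A-WT (ATP4 by 0.73 and ATP7 by 1.04) and the 1 of 8 in eS7A-4KR (ATP17, YDR377W, by 0.47) were near the shares of all genes, 28.9% and 15%. Footprints of ATP1 and ATP2 did rise in W303, by 0.58 and 0.63, and their TE changes of 0.55 and 0.28 did not pass (adjusted p = 0.0827 and 0.39).

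In eS7A-WT at 4 h, 10 of 36 mRNAs were called higher, beside 28.9% of all genes, and CYC1 was the 1 called lower, beside 30.9%. The share called higher was thus close to the background, and the median change was 0.23 against −0.01. Footprints gave 19 higher (33.8% of all genes) and 1 lower (35.7%), with a median of 0.48 against 0.01. Under total counts 30 mRNAs and 34 genes by footprints were higher and 0 lower. Over all 5558 genes, total counts gave 2087 mRNAs higher and 723 lower, and 2927 genes higher and 904 lower by footprints. With the eS7A-4KR libraries left out of the fit, 9 genes were called for mRNA and 20 for footprints. The mRNA count was 7 without RNA-seq replicate 1 of the 4 h group, and the footprint count 12 without footprint replicate 1 of the 0 h group.

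In eS7A-4KR at 4 h, 17 of 36 mRNAs were higher, beside 15% of all genes, and 0 lower, beside 17.3%. For footprints 14 were higher (17.8% of all genes) and 0 lower (20.2%), and the median changes were 0.49 and 0.47 against −0.06 and −0.04 over all genes. Complex III supplied 7 of the mRNA calls and cytochrome c oxidase 6. All 36 mRNA changes were above 0, from 0.01 to 1.32, and of the 2 footprint changes below 0 (ATP18 and QCR9) edgeR gave 0 with an unadjusted p below 0.05, while DESeq2 called 0 lower in both assays. The mRNA count fell when any single eS7A-4KR RNA-seq library, at 0 h or at 4 h, was left out. Its stability cannot be set beside that in W303, where the only 4 h RNA-seq library could not be left out. Footprint calls numbered 7 without replicate 2 at 4 h. QCR6 (YFR033C, chromosome VI:224326-224769), the acidic hinge subunit of complex III, had footprint levels of 151 and 159 at 0 h and 370 and 380 at 4 h, a rise of 1.28 (standard error 0.126, adjusted p = 1.09e-08).

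The change under Tm was then compared between the strains as an interaction. For mRNA, 2 of 36 genes had the higher change in eS7A-4KR, beside 18.9% of all genes, and 2 the lower, beside 15.8%. For footprints the numbers were 2 (23.5% of all genes) and 4 (20.3%). NDE2 and NDI1 rose less in eS7A-4KR, with differences of −2.71 (standard error 0.453, adjusted p = 7.5e-06) and −1.51 (standard error 0.199, adjusted p = 1.19e-06) for mRNA. CYC1, with changes of −1.04 in eS7A-WT and 0.02 in eS7A-4KR, differed by 1.06 (standard error 0.27, adjusted p = 0.00217), and QCR6 by 0.59 (standard error 0.182, adjusted p = 0.00929). Under total counts these were 0.62 and 0.15, and neither passed. RNA-seq levels of QCR6 were 667 at 0 h and 602 and 636 at 4 h in eS7A-WT, against 257 and 246 and then 336 and 366 in eS7A-4KR. The 0 h libraries enter both this comparison and the one between the untreated strains, where NDE2 differed by 2.80, NDI1 by 1.03, CYC1 by −1.65 and QCR6 by −1.41. In footprints NDE2 (−2.27), NDI1 (−1.81), ATP15 (−1.16, standard error 0.226, adjusted p = 0.000125) and QCR10 (−0.74) rose less in eS7A-4KR, and QCR6 (0.80, standard error 0.173, adjusted p = 0.000364) and COX5A (0.64) more. Under total counts QCR6 was at 0.10 and COX5A at −0.06, and neither passed. Footprint levels of ATP15 were 1150 and 1580 before and 3040 and 4100 after treatment in eS7A-WT, and 1570 and 2150 before and 1850 and 2520 after it in eS7A-4KR. The eS7A-4KR groups overlapped, but same-numbered footprint libraries deviated together, and within each replicate number the level was higher after treatment. Without RNA-seq replicate 1 of eS7A-WT at 4 h, or replicate 2 of eS7A-4KR at 4 h, the count of mRNA calls was 2. Under total counts the split was 0 higher and 6 lower for mRNA and 0 higher and 23 lower for footprints. Over all 5558 genes it was 520 higher and 803 lower for mRNA and 626 higher and 1795 lower for footprints.

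Before treatment, most of the module was below its eS7A-WT level in eS7A-4KR. For mRNA, 20 of 36 genes were lower, beside 19.4% of all genes, and 2 higher, beside 22.9%, with a median difference of −0.63 against 0.03. Total counts gave 22 lower and 2 higher, beside 782 and 539 of all 5558 genes. The genes called lower were 8 of 9 of cytochrome c oxidase, 6 of 9 of complex III, 5 of 13 of ATP synthase and CYC1. The largest falls were those of CYC1 (−1.65, standard error 0.208, adjusted p = 4.19e-07) and COX5A (−1.51, standard error 0.15, adjusted p = 1.14e-08). Levels of COX5A were 605 in eS7A-WT and 208 and 217 in eS7A-4KR, and those of CYC1 1440 against 460 and 456, without overlap. NDE2 and NDI1 were higher, by 2.80 (standard error 0.414, adjusted p = 1.19e-06) and 1.03 (standard error 0.156, adjusted p = 1.38e-05), and NDE1 differed by 0.02. The reference group has 1 RNA-seq library, and 13 genes were called without RNA-seq replicate 1 of eS7A-4KR at 0 h.

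Footprints at 0 h gave a like picture only relative to the median gene. They had 18 genes lower (27% of all genes) and 2 higher (26.2%), but 6 lower and 7 higher under total counts. Of all 5558 genes, total counts called 383 lower and 2191 higher. The module's median minus that of all genes was −0.41 with TMM and −0.4 under total counts. Without footprint replicate 2 of eS7A-WT or replicate 1 of eS7A-4KR 13 genes were called. QCR6 (448 and 550 in eS7A-WT against 151 and 159) and CYC1 (2210 and 3130 against 774 and 1100) had the largest footprint falls, −1.69 and −1.51, and neither pair of groups overlapped. The lengths of footprints counted differed between eS7A-4KR and eS7A-WT, and within eS7A-WT between the times, which cannot be told apart from these groups in footprints and TE.

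Translation efficiency (TE), the footprint level over the RNA-seq level per codon, was above the median of all genes for most of the module. In W303 at 0 h the median log2 TE of the 36 genes was 0.74 against −0.04 over all 5518 genes with both values, and 32 of 36 lay above that median. This comparison was not matched for ORF length. In that condition ATP1, ATP2 and NDE1, among the longest members, were at −0.03, −0.02 and 0.08. COX7 and ATP15, among the shortest, were at 2.05 and 1.88, but the similarly short COX9 was at 0.33. A dependence on length was not tested. Over the 8 conditions the median of the module was 0.68 to 1.03, and 32 to 34 genes lay above the median of all. COX7 was high throughout, at 1.35 to 2.05, and so was TIM11 (YDR322C-A), the Fo subunit e, at 1.22 to 1.90. The genes below it were QCR9 (YGR183C, chromosome VII:859063-859476), at −4.37 to −2.63 with 4 to 29 footprints per library against 198 to 582 RNA-seq reads, COX5B at −1.30 to −0.24, NDE2 at −1.12 to 0.18, where it was above the median in W303 at 4 h alone, and QCR6. QCR6 was below the median at 0 h in every strain (−0.13 in W303, −0.42 in eS7A-WT and −0.70 in eS7A-4KR) and in W303 at 1 h (−0.05), and above it in the other conditions, up to 0.17.

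No member passed the threshold for TE in any of the 7 comparisons with edgeR, fitted without a replicate block, and DESeq2 called 0 as well. All genes gave 0.0556% called in W303 at 1 h, 1.61% at 2 h and 2.91% at 4 h, 4.39% in eS7A-WT and 0.882% in eS7A-4KR at 4 h, 0.666% for the interaction and 2.82% between the untreated strains. Unadjusted p values below 0.05 were found for 2, 9 and 9 of 35 members in W303, and for 4, 2, 0 and 4 of 36 in the others, in the same order. Median standard errors of the members were 0.174 at each time in W303, 0.242 in eS7A-WT, 0.22 in eS7A-4KR, 0.328 for the interaction and 0.244 between the untreated strains, and a change of several such errors could miss the threshold. This held for the gene nearest to it, QCR6 in eS7A-4KR at 4 h, at 0.80 (standard error 0.172, adjusted p = 0.0112). The TE changes of the members were nevertheless not centred on 0 in every comparison. Their median was 0.21 in eS7A-WT, with 30 of 36 above 0, 0.19 between the untreated strains, with 25 of 36 above 0, and −0.22 for the interaction, with 7 of 36 above 0, while the median of all genes was 0, 0 and 0.02. These comparisons share libraries, and the lengths of footprints counted differ between their groups. Leaving out a single library gave 1 or 2 calls in W303 (without RNA-seq replicate 1 or replicate 2 at 0 h), 2 in eS7A-WT (without footprint replicate 1 at 4 h), 1 in eS7A-4KR (without any of the 4 eS7A-WT footprint libraries) and 1 between the untreated strains (without footprint replicate 1 of eS7A-4KR). Between the untreated strains total counts gave 19 members higher in TE, 0 with TMM, where the median of all genes moved from 0 to 0.61. Of all 5558 genes 858 were higher in TE there under total counts. With a block by replicate number, edgeR called 2 members higher for TE in eS7A-WT, 1 in eS7A-4KR and 4 between the untreated strains. Over all genes that fit called 269, 147 and 257 higher.

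**Figure D4:**
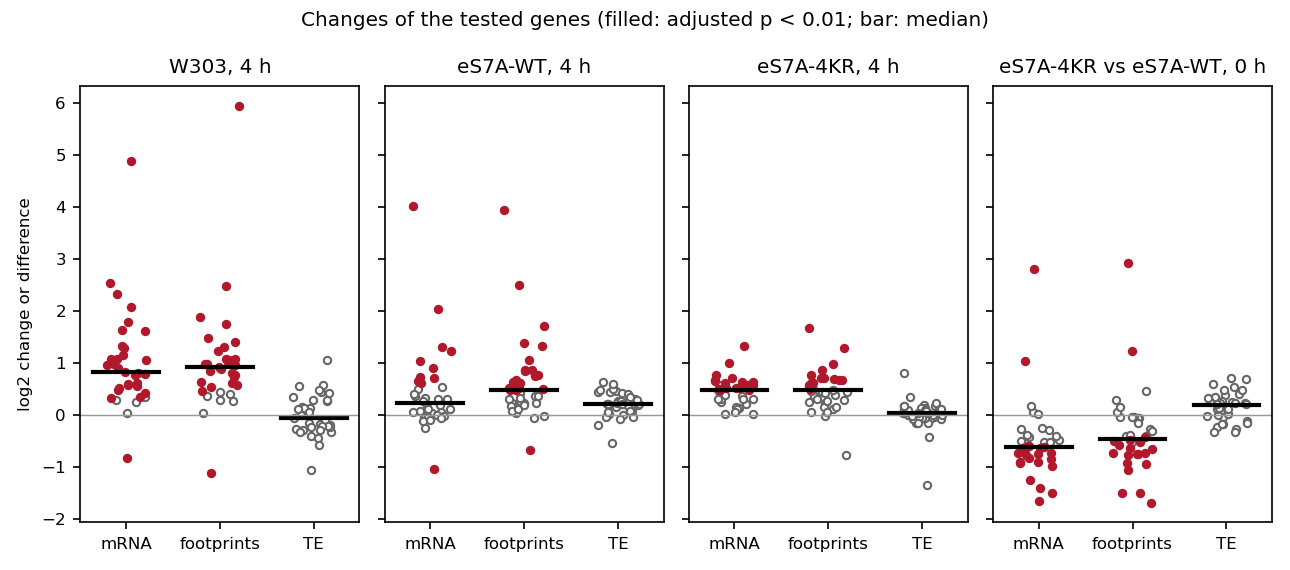
Log2 changes at 4 h in each strain, and the difference between the untreated eS7A strains, for mRNA, footprints and TE, each point a gene, filled where adjusted p is below 0.01, bars at the median. mRNA and footprints are shifted together (medians 0.82 and 0.92 in W303), while no TE point is filled. TE medians are 0.21 in eS7A-WT and 0.19 at 0 h. The footprint split at 0 h, 18 lower and 2 higher, turns to 6 lower and 7 higher under total counts. Over all 5558 genes it turns from 1503 lower and 1454 higher to 383 lower and 2191 higher.

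Reads per codon of ATP synthase subunits were set against those of ATP3 within each library. In footprints the median ratio over 13 libraries was 1.57 for ATP1 and 2.07 for ATP2, the subunits present in several copies per enzyme, with ranges of 1.27 to 1.90 and 1.55 to 2.63. In RNA-seq the same ratios were 2.30 (1.14 to 2.68) and 3.11 (1.8 to 4.19) over 12 libraries. ATP5 (YDR298C), a single subunit of the peripheral stalk, stayed nearest to ATP3 in footprints, at 0.831 to 1.02. ATP7, ATP18, ATP17, ATP4, ATP16 and ATP14 had median footprint ratios of 1.64, 1.81, 1.49, 1.25, 1.29 and 1.08. ATP7 and ATP18 thus lay above ATP1, and a relation of the ratios to copy number was not tested. ATP15 had a median footprint ratio of 3.00 that varied by strain and time, from 1.69 and 2.00 in untreated eS7A-WT, below ATP2 at 1.97 and 2.20, to between 3.89 and 4.51 in eS7A-4KR. ATP20 (YPR020W) and TIM11, which join the enzyme into dimers, had medians of 0.845 and 0.774, but TIM11 was at 1.13 to 1.23 in the 4 eS7A-4KR libraries and at 0.591 to 0.886 in the others. Ratios of short genes such as ATP15 rest on few codons.

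**Figure D5:**
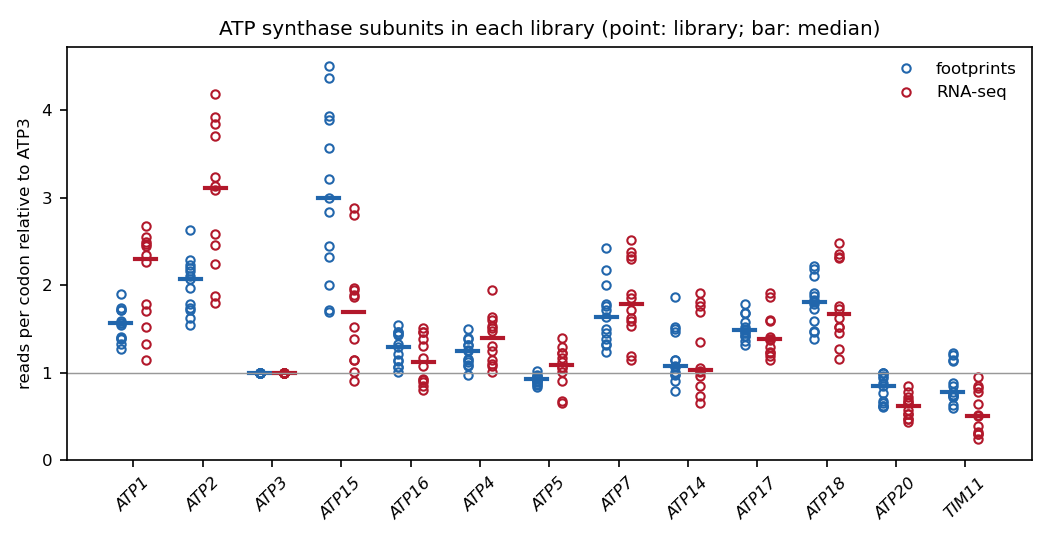
Reads per codon of 13 ATP synthase subunits relative to ATP3, each point a library (13 of footprints, 12 of RNA-seq), bars at the median. ATP1 and ATP2 lie closer to ATP3 in footprints (medians 1.57 and 2.07) than in RNA-seq (2.30 and 3.11), and ATP15 has the widest spread in footprints, from 1.69 to 4.51.

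Related genes from lists outside the module were read in the same fits. Succinate dehydrogenase, which feeds electrons to ubiquinone from the citric acid cycle, had 4 of 4 mRNAs called higher at 4 h in each strain, with medians of 1.84 in W303, 1.32 in eS7A-WT and 0.76 in eS7A-4KR, and 0 of 4 called between the untreated strains by edgeR, with 0 at an unadjusted p below 0.05. Of 31 assembly factors of complex III, cytochrome c oxidase and ATP synthase, 10 were higher and 6 lower in W303 at 4 h (all genes 35.7% and 35.8%), 4 higher and 11 lower in eS7A-WT (28.9% and 30.9%) and 1 higher and 9 lower in eS7A-4KR (15% and 17.3%). Between the untreated strains 22 of the 31 were higher in eS7A-4KR and 0 lower (22.9% and 19.4% of all genes), with a median of 0.72, where the median of the 36 subunit genes was −0.63. HAP4 (YKL109W), the limiting activator subunit, had RNA-seq levels of 45.9 and 61.0 in W303 at 0 h, then 60.1, 23.5 and 76.9 after 1, 2 and 4 h. In eS7A-WT they were 53.4 at 0 h and 50.6 and 58.1 at 4 h, and in eS7A-4KR 138 and 135, then 137 and 128. HAP4 was thus above every other library in all 4 of eS7A-4KR, by 1.36 at 0 h (standard error 0.127, adjusted p = 1.7e-08). Of the 36 subunit genes, 20 were called lower there (19.4% of all genes) and 2 higher (22.9%). HAP1 (YLR256W), an activator of CYC1, was higher there by 0.99 (adjusted p = 0.00418), with levels of 367 and 361 at 0 h, 173 and 383 at 4 h and 183 in untreated eS7A-WT. RNA-seq replicate 1 of eS7A-4KR at 4 h was thus at the level of eS7A-WT for HAP1, and it also held the lowest COB level. Of the 6 regulators listed, 2 (HAP4 and HAP1) were called higher between the untreated strains and 0 lower (22.9% and 19.4% of all genes). The median of the list was 0.17, and HAP2, HAP3, HAP5 and ROX1 were not called.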

How the data were processed

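The submitters' processing notes name CASAVA 1.8, Bowtie2 2.0.6, TopHat2 2.0.7 and sacCer3, and the authors removed duplicate reads by their barcodes. The deposited tables give, for each ORF, the codons counted (a length, not a measurement) and whole-number counts of footprints by ribosomal A site or of RNA-seq reads, which the authors had not normalized. The range of footprint lengths counted differed between eS7A groups, and that of W303 is not given in the sources used here. Counts were normalized by TMM within each assay and fitted with edgeR 4.0.16 in R 4.3.3 (glmQLFit and glmQLFTest), 1 fit for W303 and 1 for the eS7A strains, keeping genes whose counts averaged 10 or more over the libraries of both assays taken separately. TE changes are the footprint contrast minus the RNA-seq contrast in the same fit. Library totals and counts per gene set the precision, and nothing in the labels beyond replicate numbers says that libraries came from separate cultures, so p-values measure the spread between these samples. DESeq2 1.42.0, total counts, no filter, edgeR's newer quasi-likelihood method, a replicate block and leaving out each replicate were tried as alternatives. The fit was tested on simulated data. Fold changes are printed with standard error and adjusted p for at most the 2 largest rises and falls called in a comparison, and values in every library for such genes in the 4 h or strain comparisons, for the isoform pairs, ATP1, ATP2, ATP3 and HAP4. Other members shown with a change alone, NDE1 at 1 and 2 h, and HAP1 were picked after their values were seen. The mitochondrial ORFs described were added after their values were seen. The members and gene lists were chosen with earlier results of these data known. No sequences are shown, and coordinates are those of R64.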

Additional observations from a re-analysis of the deposited data

Results flagged for a closer look

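For 10 values the change under Tm differed between eS7A-4KR and eS7A-WT by the test of the interaction with edgeR, in a strain comparison that cannot be told apart from the low mitochondrial reads of eS7A-4KR. For mRNA the differences (eS7A-4KR minus eS7A-WT) were 0.59 for QCR6, 1.06 for CYC1, −1.51 for NDI1 and −2.71 for NDE2. For footprints they were 0.80 for QCR6, 0.64 for COX5A, −0.74 for QCR10, −1.16 for ATP15, −1.81 for NDI1 and −2.27 for NDE2. Under total counts COX5A was at −0.06, QCR6 at 0.15 for mRNA and 0.10 for footprints and CYC1 at 0.62, and none of these passed, while NDI1, NDE2, ATP15 and QCR10 did. NDE2 rests on 3 to 110 footprints per eS7A library.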

How the results depend on the processing

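With total counts, the number of the 36 genes called was 30 for mRNA, 34 for footprints and 1 for TE in eS7A-WT, 23 for footprints in eS7A-4KR, 23 for footprints in the interaction, 13 for footprints and 19 for TE between the untreated strains, and 3 for TE in W303 at 4 h. It reversed CYC1 in W303 mRNA at 2 h (0.04) and eS7A-WT footprints (0.18), COX5A in the footprint interaction (−0.06) and, in footprints between the untreated strains, ATP16 (0.08), ATP17 (0.00), ATP18 (0.10), COX13 (0.07) and QCR7 (0.16). The median of all genes moved with it, in mRNA at 4 h to 0.65 in eS7A-WT and 0.16 in eS7A-4KR. Total counts called 784 of all 5558 genes higher and 410 lower in eS7A-4KR footprints. For TE they called 98 and 87 in eS7A-WT, and 370 and 65 of 5392 genes in W303 at 4 h. DESeq2 called 1 mRNA in W303 at 1 h and 10 at 2 h. Without a filter 1 was called in W303 at 1 h and 1 for TE in eS7A-4KR. Of 196 called values of single genes, 170 kept their call with total counts, 161 with DESeq2, 180 without a filter and 192 with the replicate block.

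Same-numbered eS7A libraries deviated together in footprints (correlations 0.473 to 0.638) but not in RNA-seq (−0.341 to 0.0306), so the numbers were not taken as pairs. With the replicate block, 17 genes were called for mRNA and 2 for TE in eS7A-WT, 26 for mRNA, 26 for footprints and 1 for TE in eS7A-4KR, 13 for mRNA and 17 for footprints in the interaction and 4 for TE between the untreated strains. With the eS7A-4KR RNA-seq numbers at 4 h crossed in the block, chosen after seeing the data, the counts were 17 and 3 in eS7A-WT, 28, 27 and 2 in eS7A-4KR, 15, 17 and, for TE, 1 in the interaction, and 5 for TE between the untreated strains. Over all 5558 genes the block without crossing called 1888 higher and 1985 lower for mRNA and 269 and 343 for TE in eS7A-WT. In eS7A-4KR it called 1232 and 1604 for mRNA, 1326 and 1562 for footprints and 147 and 95 for TE. In the interaction it called 1391 and 1295 for mRNA and 1646 and 1462 for footprints. Between the untreated strains it called 257 and 454 for TE.

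Leaving out each replicate in turn gave, for mRNA, 5 to 8 called at 1 h, 16 to 19 at 2 h and 29 to 31 at 4 h in W303, 7 to 13 in eS7A-WT, 4 to 21 in eS7A-4KR, 2 to 5 in the interaction and 13 to 24 between the untreated strains. For footprints it gave 26 to 31 in W303 at 4 h, 12 to 24 in eS7A-WT, 7 to 21 in eS7A-4KR, 6 to 8 in the interaction and 13 to 24 between the untreated strains. For TE it gave 0 to 1 at 1 h, 0 to 2 at 2 h and 0 to 1 at 4 h in W303, 0 to 2 in eS7A-WT, 0 to 1 in eS7A-4KR, 0 to 0 in the interaction and 0 to 1 between the untreated strains. Where a group was left with 1 library, it was assumed to vary like the others. Low footprint depth limits NDE2 and QCR9.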
